A study of Oryza sativa with 8 samples.

Results

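The cold response of rice overexpressing OsTMF was set against that of the wild type, gene by gene, to find where the same chilling moved a transcript further, less far or the other way. All 8 of the study's 8 arrays enter this comparison, in 4 groups of 2. ZH11 normal and ZH11 cold are wild-type seedlings of the cultivar Zhonghua 11 at the 4-leaf stage, before and after 24 h in a chamber at 4 °C with 14 h of light and 10 h of darkness. OE normal and OE cold are seedlings overexpressing OsTMF in that cultivar, treated alike, and in both groups replicate 1 is line OE-24 and replicate 2 is line OE-29. Shoots and leaves were sampled. Each OE line is represented by 1 array per treatment, so the spread within an OE group is also a difference between lines. Nothing in the labels says what promoter drives the transgene or how many plants made a sample. Because the normal samples were taken before the move, a cold change also holds a day of growth and new surroundings, in both genotypes.

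The measure is the interaction, in which the ZH11 cold change is subtracted from that of OE on the scale of log2(signal + 16). It is above 0 where a transcript rose more or fell less in OE, and below 0 where it rose less or fell more. It was tested for 34313 of the 57194 probe sets of the array with limma, and a probe set was called at an adjusted p under 0.05. A call was then sorted by the 2 estimated cold changes. It was amplified where both had the same sign and OE moved further, damped where both had the same sign and OE moved less, and reversed where the signs differed. The sort is a description of the called probe sets and was not itself tested. A small change near 0 can take either sign, so many reversed calls have 1 cold change that did not pass its own test.

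In plants, chilling is sensed at membranes and through calcium, and within hours it switches on DREB1 (CBF) transcription factors, which in turn activate genes of cold tolerance. Jasmonate and ethylene signalling feed into this response, and JAZ proteins, the repressors of jasmonate signalling, are themselves induced when the hormone acts. Aquaporins, the water channels of the plasma membrane and the vacuole, are often lowered in chilled tissue, and chaperones of the endoplasmic reticulum help proteins fold there. Golgins of the TMF type are coiled-coil proteins of the Golgi in animals and yeast.

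The signals had array medians of 27.2 to 28.2, and the median mean signal of the tested probe sets was 123.5. Of 13 genes for photosystems and light harvesting, which mark green leaf tissue, the median signal was 4776, and of 43 marker genes of seed, root, flower and meristem it was 12.1. Single genes varied widely, from 5.26 to 14745 in the photosystem list and up to 2767 among the 43 markers. Those 43 genes summed to signals of 8732 to 9309 in ZH11 normal, 7709 to 8048 in ZH11 cold, 8614 to 9098 in OE normal and 7754 to 8238 in OE cold, and 0 of the 19 tested passed for the interaction, with 2 at an unadjusted p under 0.05. OsTMF was matched to 0 probe sets through the annotation used here, so the overexpression itself was not checked. Whether a signal fell because fewer cells of a type were present or because each held less of the RNA cannot be told apart in these samples.

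The interaction passed its test for a small share of the array. Of the 34313 probe sets, 388 (1.13%) passed for the interaction, 249 above 0 (0.726%) and 139 below 0 (0.405%). A difference of at least 2-fold was seen for 152 of them (0.443%). By comparison, cold itself was called for 60.3% of probe sets (71% of genes) in ZH11 and 54.8% (67.3%) in OE. The balance of signs depended on scaling, with 208 above and 191 below 0 when each array was centred on its median, and on 1 array, with 206 and 202 without OE normal replicate 1. Taking the probe set of highest mean signal for each gene, 242 of 15858 genes passed (1.53%), 163 above 0 (1.03%) and 79 below 0 (0.498%). At an unadjusted p under 0.05 there were 4773 probe sets, 13.9% of those tested.

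The called probe sets comprised 170 amplified, 163 damped and 55 reversed cold responses. These numbers changed when 1 array was left out. Such fits also have fewer residual degrees of freedom, and a call could be lost with little change in its estimate. The interaction of SAP5, for example, was -0.727 with all arrays and -0.724 and -0.729 without ZH11 cold replicates 1 and 2. That of DREB1G moved more, from 1.88 to 2.67 over the 8 fits. Why calls were lost was not tested. Without ZH11 cold replicate 1 there were 71 calls (42 amplified, 21 damped and 8 reversed), and the total was 117 without ZH11 cold replicate 2, 119 and 213 without ZH11 normal replicates 1 and 2, and 243 without OE cold replicate 1. The called rises comprised 135 amplified and 72 damped, and the called falls 91 damped and 35 amplified, splits that follow the excess of calls above 0 and were not tested. With median centring they were 130 and 117 for rises and 65 and 37 for falls, and without OE normal replicate 1, 101 and 111, and 79 and 46. Among amplified rises the median cold change was 1.30 in ZH11 and 2.48 in OE, and among damped rises it was 2.15 and 1.07. Damped falls had medians of -1.88 in ZH11 and -1.23 in OE, and amplified falls -0.51 and -1.49. The ZH11 cold change did not itself pass for 25 of the 170 amplified calls, nor the OE one for 10 of the 163 damped. Reversed responses comprised 23 that fell in ZH11 and rose in OE by their estimates and 32 that did the opposite. Over genes the counts were 98 amplified, 113 damped and 31 reversed. The main model did not use the pairing of OE arrays by line. With the lines as a replicate block within OE there were 544 calls, 330 above and 214 below 0. The damped class then held 249 probe sets.

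**Figure D1:**
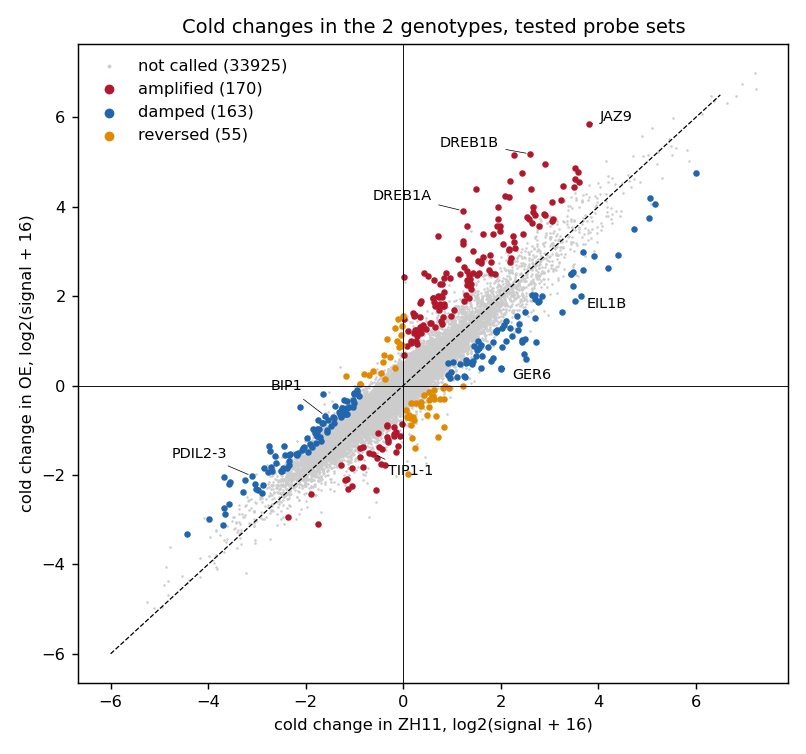
Cold change in OE (y axis) against cold change in ZH11 (x axis), both as differences of log2(signal + 16), for the 34313 tested probe sets. Each point is a probe set, the dashed line marks equal changes, and colours mark the 170 amplified, 163 damped and 55 reversed calls. Labels name 8 genes described in the text, and most uncalled points (grey) follow the line.

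These calls arose mostly after chilling. The genotypes differed after cold only for 337 of the 388 probe sets, before cold only for 29, at both times for 18 and at neither for 4. Over all probe sets, 4500 (13.1%) differed after cold and 411 (1.2%) before. The 2 contrasts were adjusted separately, so the cut-off was stricter before cold, where fewer probe sets passed. A difference of similar size could pass after cold and not before. BGLU27, for example, differed by -0.35 before (adjusted p = 0.103) and 0.30 after cold (adjusted p = 0.0422). The interaction is built from these same arrays, so the counts describe where the difference lay and are not separate evidence. Amplified rises had a median difference between genotypes of -0.08 before and 1.02 after cold. Damped falls had -0.03 before and 0.70 after.

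**Figure D2:**
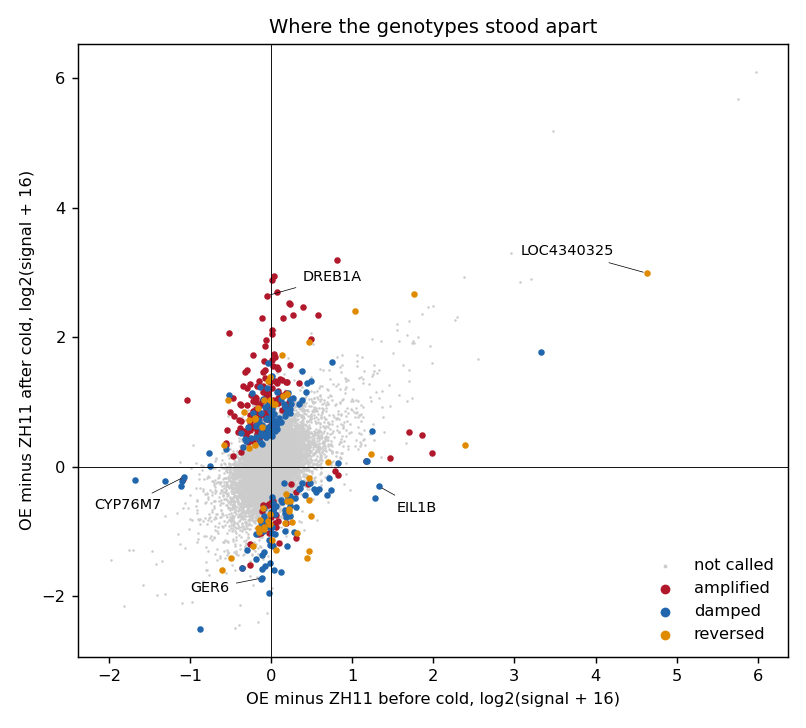
Difference OE minus ZH11 before cold (x axis) and after cold (y axis), in log2(signal + 16), for the tested probe sets. Points are probe sets coloured by class, grey where not called, and 5 genes are labelled. Most coloured points lie near 0 on the x axis and away from 0 on the y axis, whereas EIL1B, CYP76M7 and LOC4340325 stood apart before cold.

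Cold-induced regulators had the largest interactions among the amplified rises of genes that have a symbol beyond a locus number. Of the 5 DREB1 genes tested, 3 passed, all above 0, against 1.03% of all genes, and the list's median interaction was 2.27 against 0.05 over all genes. The gene lists were chosen with earlier results of these data known. Shares set beside those of all genes, here and below, therefore describe the lists and are no test of enrichment. DREB1A had signals of 53.6 and 48.7 in ZH11 normal, 126 and 155 in ZH11 cold, 42.8 and 55.3 in OE normal and 1050.4 and 872 in OE cold. It rose in both genotypes, and the OE cold arrays lay far above the other 6. The cold change was 1.22 in ZH11 and 3.91 in OE, an interaction of 2.69 ± 0.20, or 6.46-fold (adjusted p = 0.000612). DREB1B, its close relative, read 152 and 170.5 in ZH11 normal, 988 and 1119 in ZH11 cold, 89 and 129 in OE normal and 4346 and 4567 in OE cold. Here too ZH11 cold lay above the normal arrays and OE cold above everything else, with changes of 2.59 and 5.18 and an interaction of 2.59 ± 0.19 (adjusted p = 0.000612).

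DREB1G, another member of that group, gave 71.5 and 34.6 in ZH11 normal, 139 and 156 in ZH11 cold, 52.1 and 74.2 in OE normal and 1163 and 716 in OE cold. The 2 OE cold arrays were again highest, but the replicates were wider apart, and the interaction was 2.27 ± 0.38 (adjusted p = 0.0215). Its adjusted p ran from 0.0543 to 0.129 without ZH11 normal replicate 1, without either ZH11 cold array and without either OE-24 array, and the robust fit did not call it. The other 2 members were not called, DREB1E at 0.48 (adjusted p = 0.190) and DREB1C at -0.10 (adjusted p = 0.817). Near-identical DREB1 genes may share probe signal, and how far they did was not tested.

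The JAZ list held 3 amplified rises among 12 tested genes, 25% against 1.03% of all genes, with a median of 0.23. JAZ9 read 32.7 and 20.6 in ZH11 normal, 581 and 568 in ZH11 cold, 17.6 and 38.3 in OE normal and 2396 and 2463 in OE cold. All 4 cold arrays were far above the normal ones, the OE pair highest, with cold changes of 3.81 and 5.84 and an interaction of 2.03 ± 0.28 (adjusted p = 0.00955). For JAZ13 the signals were 76.5 and 57.5 in ZH11 normal, 285 and 316 in ZH11 cold, 60.9 and 114 in OE normal and 1710.4 and 1464 in OE cold. The same order held, and the interaction was 2.06 ± 0.30 (adjusted p = 0.0118). JAZ10, named after its values were seen, followed at 0.87 ± 0.17 (adjusted p = 0.0437). JAZ11 rose by 3.46 in ZH11 and 3.55 in OE and JAZ12 by 3.19 and 3.49, and neither passed for the interaction. Without either ZH11 cold array 0 of the 12 genes passed, with adjusted p for JAZ9 at 0.0597 to 0.0689 and JAZ13 at 0.0540 to 0.0836, and the count was 2 or 3 without any other array.

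Other transcription factors joined the amplified rises. MYB2, a factor of drought, salt and cold responses, had signals of 52.5 and 72.7 in ZH11 normal, 146 and 189.9 in ZH11 cold, 53.5 and 48.7 in OE normal and 574 and 596 in OE cold. The OE cold pair was well above the ZH11 cold pair, and the normal arrays of both genotypes overlapped. Its interaction was 1.94 ± 0.21 (adjusted p = 0.00288). MYB4, a cold-induced MYB factor, rose by 3.04 in ZH11 and 4.10 in OE, an interaction of 1.05 ± 0.13 (adjusted p = 0.0064, or 0.0606 without ZH11 cold replicate 1). These were 2 of 10 MYB genes, against 1.03% of all genes called above 0, and the list's median was -0.07. HSF07, a heat shock factor, rose by 0.84 and 2.10, and its interaction of 1.26 ± 0.18 had an adjusted p of 0.0118. That p was 0.0520 to 0.0850 without ZH11 normal replicate 1 or either ZH11 cold array. Of the 19 heat shock factors tested it was the only call, against 1.53% of all genes called either way.

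DXPS encodes the enzyme that opens the plastid pathway to isoprenoids. Its signals were 69.5 and 47.1 in ZH11 normal, 189.9 and 233 in ZH11 cold, 99.4 and 89.1 in OE normal and 1124 and 1154 in OE cold. The OE cold pair lay far above the ZH11 cold pair, and the OE normal arrays also lay above the ZH11 normal ones. The cold changes were 1.62 and 3.39, with an interaction of 1.77 ± 0.21 (adjusted p = 0.00443). It was 1 of 2 called above 0 among 15 genes for diterpenoids and plastid isoprenoids, against 1.03% of all genes, and the other, CYP76M7, was a damped fall.

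Among calcium sensors, 2 of 31 genes (6.45%) were amplified rises, against 1.03% of all genes called above 0, and the list's median was 0.09. CML15, a calmodulin-like protein, read 259 and 314 in ZH11 normal, 1101 and 1030.4 in ZH11 cold, 222 and 249 in OE normal and 2748 and 2442 in OE cold. Cold raised it in every cold array and more in OE, an interaction of 1.53 ± 0.15 (adjusted p = 0.00186). CML10 had a smaller interaction of 0.58 ± 0.11 (adjusted p = 0.0455), and was lost in 6 of the 8 fits without 1 array, where that p lay between 0.0749 and 0.211 without any 1 ZH11 array or either OE-24 array. SAP11, a zinc finger protein of the stress-associated A20/AN1 kind, rose by 2.66 in ZH11 and 4.00 in OE (interaction 1.34 ± 0.13, adjusted p = 0.00186). GRXC15, a glutaredoxin, had 3.61 and 4.55 (interaction 0.95 ± 0.17, adjusted p = 0.0309). Its adjusted p was 0.0666 to 0.160 without ZH11 normal replicate 1, OE normal replicate 1 or any 1 cold array.

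The largest interactions in this class belonged to 2 genes with a locus number only. LOC4347266 read 7 and 7.6 in ZH11 normal, 51.6 and 47.5 in ZH11 cold, 7 and 9 in OE normal and 562 and 428 in OE cold. Its normal signals were close to the bottom of the scale, so the size of 2.91 ± 0.19 (adjusted p = 0.000612) depends on the pseudocount, with 3.17 at a pseudocount of 1 and 2.27 at 64. LOC4326920 read 15.4 and 18.7 in ZH11 normal, 132 and 158 in ZH11 cold, 11.5 and 24.3 in OE normal and 1181 and 1154 in OE cold. It had an interaction of 2.87 ± 0.24 (adjusted p = 0.000957), again from low normal signals.

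**Figure D3:**
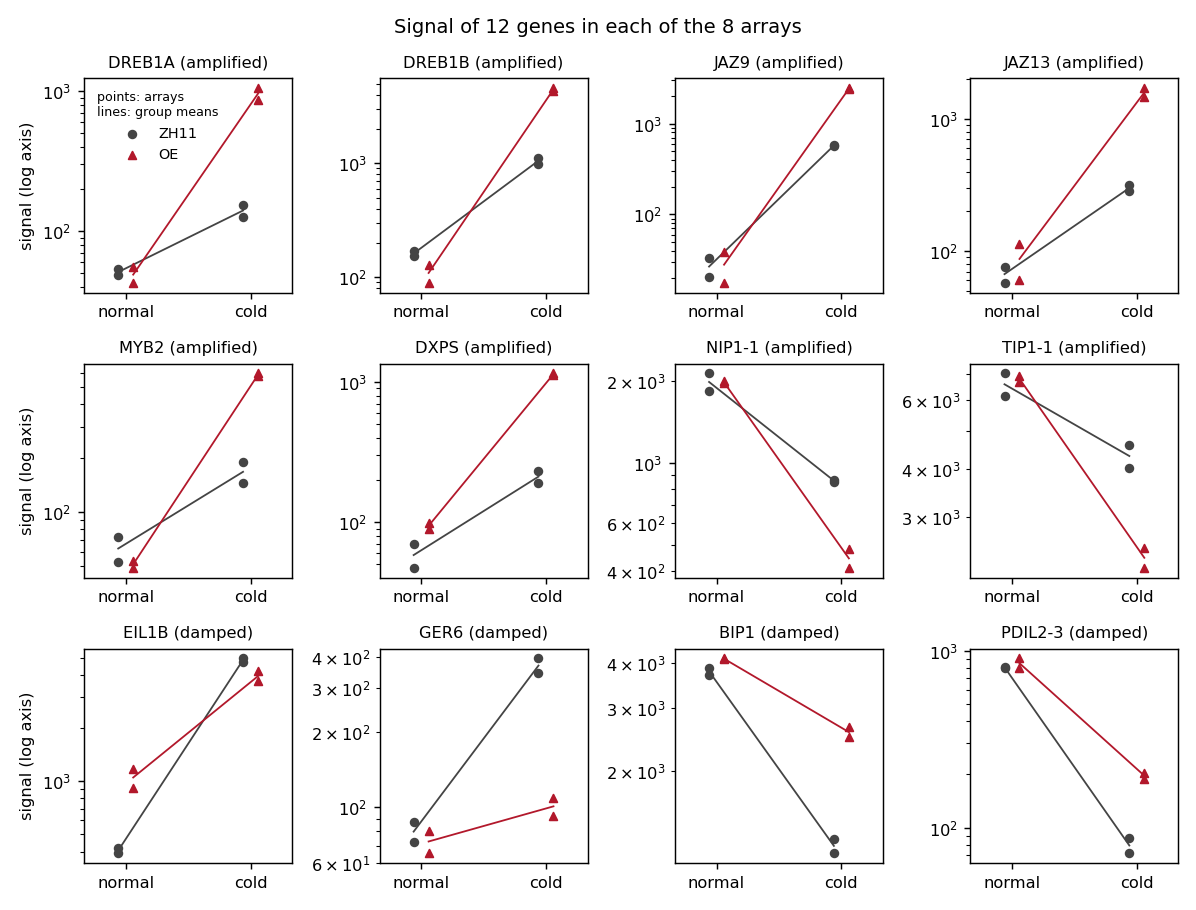
Signal of 12 called genes (y axis, log scale, signal as deposited) before and after cold (x axis). Grey circles are the ZH11 arrays, red triangles the OE arrays, and lines join the means of 2 arrays. The DREB1, JAZ, MYB2 and DXPS panels rise more steeply in OE, NIP1-1 and TIP1-1 fall more steeply, and EIL1B, GER6, BIP1 and PDIL2-3 change less in OE.

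Water channels were the main named group among amplified falls. Of 22 aquaporin genes tested, 4 passed, all below 0, against 0.498% of all genes, and 17 of the 22 had an interaction below 0 with a median of -0.28. TIP1-1, a channel of the vacuole membrane, read 6156 and 7043 in ZH11 normal, 4599 and 4029 in ZH11 cold, 6931 and 6704 in OE normal and 2499 and 2221 in OE cold. The normal arrays of both genotypes were alike and the OE cold pair was lowest. It changed by -0.61 in ZH11 and -1.53 in OE, an interaction of -0.91 ± 0.13 (adjusted p = 0.00928, or 0.0612 without ZH11 cold replicate 1). Its other tested probe set, named for the same target, gave -0.98 (adjusted p = 0.00514) and is not separate evidence.

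NIP1-1, of the nodulin-26-like branch, read 1833 and 2135 in ZH11 normal, 867 and 853 in ZH11 cold, 1994 and 1960.1 in OE normal and 411 and 481 in OE cold. The order of the groups was the same, with an interaction of -0.93 ± 0.13 (adjusted p = 0.0112). PIP1-1, of the plasma membrane branch, had an interaction of -0.57 ± 0.08 (adjusted p = 0.0129), with cold changes of -0.34 and -0.90. TIP2-2, a second vacuolar channel, read 5589.9 and 5788 in ZH11 normal, 5212 and 5039 in ZH11 cold, 5796 and 4473 in OE normal and 2255 and 2706 in OE cold. It fell only in OE by the test, since the ZH11 change of -0.15 did not pass, and the interaction was -0.89 ± 0.16 (adjusted p = 0.0312).

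The size was larger for PIP2-4, at -1.17, but it was not called (adjusted p = 0.0757), and TIP1-2 was the largest above 0, at 0.51 (adjusted p = 0.159). Without ZH11 cold replicate 1, 0 aquaporin genes passed, without ZH11 cold replicate 2 only 1 did and without ZH11 normal replicate 1 there were 2, while the list's median stayed between -0.34 and -0.22. NIP1-1 had an adjusted p of 0.0600 to 0.0796 without either ZH11 cold array, PIP1-1 at 0.0680 to 0.0891 without these or ZH11 normal replicate 1, and TIP2-2 at 0.0763 to 0.162 without any 1 ZH11 array or OE cold replicate 1. Median centring left TIP2-2 uncalled and 3 of the 22 called.

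SUS1, a sucrose synthase, and SWEET1b, a sugar transporter, were also amplified falls. SUS1 changed by -0.33 in ZH11 and -1.15 in OE, an interaction of -0.82 ± 0.17 at the edge of the threshold (adjusted p = 0.0495). It was not called in 6 of the 8 fits that left out 1 array (adjusted p of 0.0825 to 0.191), the exceptions being those without OE normal replicate 2 and OE cold replicate 2. Its other probe set gave -0.99 (adjusted p = 0.0249). SWEET1b changed by -0.20, which did not pass, and -0.93, with an interaction of -0.74 ± 0.14 (adjusted p = 0.0376), and it passed in only 1 of those 8 fits, the one without ZH11 normal replicate 1 (adjusted p of 0.0629 to 0.168 in the others). For SWEET1b the difference OE minus ZH11 was 0.46 before cold and -0.28 after, and neither passed (adjusted p = 0.0650 and 0.0938). Of 26 starch and sucrose genes and 15 sugar transporters SUS1 and SWEET1b were the only calls, against 1.53% of all genes called either way.

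Among locus numbers, LOC4341174 read 1145 and 916 in ZH11 normal, 797 and 783 in ZH11 cold, 1289 and 1252 in OE normal and 384 and 337 in OE cold, with an interaction of -1.41 ± 0.15 (adjusted p = 0.0024). The 2 OE cold arrays stood below the other 6. LOC4347314 showed another pattern, with 24.3 and 24.4 in ZH11 normal, 18.3 and 22.2 in ZH11 cold, 88.8 and 102 in OE normal and 25.6 and 21.8 in OE cold. It was high only in OE normal, and cold brought OE to the ZH11 level (interaction -1.33 ± 0.15, adjusted p = 0.00336). The ZH11 change of -0.16 did not pass (adjusted p = 0.225).

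Among genes with a symbol the largest damped rise was that of EIL1B, a transcription factor of ethylene signalling. It read 419 and 392 in ZH11 normal, 4753 and 4949 in ZH11 cold, 1179 and 919.5 in OE normal and 4177 and 3686 in OE cold. Before cold the OE pair exceeded the ZH11 pair by 1.33 on the log2 scale (adjusted p = 0.000245), and after cold the ZH11 pair was slightly higher. The cold changes were 3.53 in ZH11 and 1.90 in OE, and the interaction was -1.63 ± 0.15 (adjusted p = 0.00164). Its relative EIL1A had an interaction of -0.04, and it was the only call among 11 ethylene genes, against 1.53% of all genes called either way.

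Germin-like proteins are cell wall glycoproteins, several of them linked to defence in rice. Of 9 tested, 2 passed, both below 0, against 0.498% of all genes, and 8 of the 9 interactions were below 0 with a median of -0.64. GER6 read 72.4 and 87.4 in ZH11 normal, 344 and 394 in ZH11 cold, 65.5 and 80.4 in OE normal and 109 and 92.5 in OE cold. ZH11 cold stood well above the other 3 groups, which lay close together. It rose by 2.01 in ZH11 and 0.39 in OE, an interaction of -1.61 ± 0.19 (adjusted p = 0.0046). GLP2, the second call, was reversed by its estimates, with 128 and 129 in ZH11 normal, 256 and 269 in ZH11 cold, 84.6 and 74.1 in OE normal and 86.9 and 65.6 in OE cold. The ZH11 cold pair was again the highest, the OE change of -0.06 did not pass, and the interaction was -0.999 ± 0.18 (adjusted p = 0.0312).

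The other GLP2 probe set had an interaction of -1.63 (adjusted p = 0.00186), with a rise in ZH11 and a change of 0.38 in OE, and was damped. The chosen GLP2 probe set was not called without any 1 ZH11 array, OE normal replicate 1 or OE cold replicate 2 (adjusted p of 0.0651 to 0.148). GER8 (-0.89) and GER5 (-0.78) did not pass (adjusted p = 0.150 and 0.217). The germin-like genes are close relatives, and probe sets may read more than 1 of them.

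BCL1, a bHLH factor, read 15 and 13.2 in ZH11 normal, 85.9 and 99.3 in ZH11 cold, 15.6 and 13 in OE normal and 35.7 and 26.1 in OE cold. It rose in both genotypes, less in OE, with an interaction of -1.23 ± 0.17 (adjusted p = 0.00945). ACR2.1, an arsenate reductase, read 2700.2 and 2388 in ZH11 normal, 5103 and 4858 in ZH11 cold, 2445 and 2433 in OE normal and 2801 and 2720.1 in OE cold. The ZH11 cold pair stood far above the other 6 arrays. The OE change of 0.18 did not pass its test (adjusted p = 0.0513), and the interaction was -0.79 ± 0.10 (adjusted p = 0.0056, or 0.0579 without ZH11 cold replicate 1).

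The other damped rises described here by name held their direction in both lines at a smaller size. INO1, which makes inositol phosphate, the first step of inositol synthesis, rose by 2.69 in ZH11 and 2.03 in OE (interaction -0.67 ± 0.10, adjusted p = 0.0122, and 0.0612 to 0.0843 without ZH11 normal replicate 1 or either ZH11 cold array). APR-like1 rose by 2.33 and 1.55 (interaction -0.77 ± 0.11, adjusted p = 0.00942, and 0.0579 to 0.0672 without either ZH11 cold array). One of its other probe sets was called at -0.85 and another, dim, was not at -0.08. SAP5, of the same zinc finger family as SAP11, had 2.02 and 1.29 (interaction -0.73 ± 0.14, adjusted p = 0.0345), so these relatives had interactions of opposite sign. PP2C48, a protein phosphatase, had 2.07 and 1.35 (interaction -0.72 ± 0.13, adjusted p = 0.0255). Both were lost without any 1 ZH11 array or either OE cold array, with adjusted p for SAP5 at 0.0854 to 0.190 and PP2C48 at 0.0694 to 0.160, and their other probe sets, at -0.51 for SAP5 and -0.26 and -0.44 for PP2C48, were not called. Ran1 (LOC4339683), a GTPase of nuclear transport, had the smallest of these interactions at -0.42 ± 0.07 (adjusted p = 0.029), and it passed in only 1 of the 8 fits, the one without OE normal replicate 1 (0.0522 to 0.172 in the others).

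Among locus numbers LOC4351537 read 69.2 and 62.5 in ZH11 normal, 404 and 498 in ZH11 cold, 69.2 and 59.6 in OE normal and 138 and 78.6 in OE cold, an interaction of -1.92 ± 0.28 (adjusted p = 0.0129). ZH11 cold alone was high, as for GER6. LOC4351528 read 42.8 and 38.5 in ZH11 normal, 292 and 302 in ZH11 cold, 95.5 and 153 in OE normal and 229 and 189.7 in OE cold, an interaction of -1.76 ± 0.25 (adjusted p = 0.0108). There OE was already above ZH11 before cold. Without either ZH11 cold array their adjusted p was 0.0577 to 0.0749 and 0.0628 to 0.0711.

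The damped falls of genes with a symbol included BIP1 and PDIL2-3, from different lists. BIP1, an HSP70 chaperone of the endoplasmic reticulum, read 3702 and 3888 in ZH11 normal, 1181 and 1294 in ZH11 cold, 4108 and 4123 in OE normal and 2492 and 2648 in OE cold. All normal arrays were above all cold ones, and OE cold kept more than ZH11 cold. It changed by -1.60 in ZH11 and -0.68 in OE, an interaction of 0.93 ± 0.10 (adjusted p = 0.00211). PDIL2-3, a protein disulphide isomerase, read 802 and 809 in ZH11 normal, 71.8 and 86.9 in ZH11 cold, 795 and 903 in OE normal and 189 and 204 in OE cold. The same order held, with an interaction of 1.09 ± 0.15 (adjusted p = 0.00928, or 0.0597 without ZH11 cold replicate 1).

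HSP18.8, a small heat shock protein, changed by -2.46 and -1.85 (interaction 0.61 ± 0.10, adjusted p = 0.0195). It was lost without ZH11 normal replicate 1, either ZH11 cold array or OE cold replicate 1 (adjusted p of 0.0633 to 0.110). BIP1 and HSP18.8 were the 2 calls among 26 heat shock proteins and chaperones (7.69%, against 1.03% of all genes called above 0), whose median was 0.15, with 20 of 26 above 0. Lists were matched by gene symbol or synonym, so a chaperone under another name would be missed, and DJB6, described below, was not in this one. PDIL2-3 and GRXC15, also above 0 but of different classes, were the 2 among 47 genes for thiol redox proteins and glutathione transferases (4.26%, against the same 1.03%), whose median was 0.17. The median over all genes was 0.05.

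The other damped falls are given gene by gene, and their roles were not compared. C3H54, a CCCH zinc finger protein, read 206 and 139 in ZH11 normal, 24.3 and 29.1 in ZH11 cold, 199 and 136 in OE normal and 113 and 114 in OE cold. ZH11 cold alone was low, the OE change of -0.48 did not pass, and the interaction was 1.65 ± 0.27 (adjusted p = 0.02, and 0.0561 to 0.127 without ZH11 normal replicate 1, either ZH11 cold array or OE cold replicate 1). CYP76M7, a cytochrome P450 of diterpenoid phytoalexin synthesis, read 741 and 828 in ZH11 normal, 66.8 and 64.7 in ZH11 cold, 359 and 371 in OE normal and 63.8 and 51.2 in OE cold. It differed before cold, with OE at -1.07 against ZH11 (adjusted p = 0.0011), and the cold levels of both genotypes were close. The interaction was 0.91 ± 0.16 (adjusted p = 0.0249), and that p was 0.0532 to 0.129 without any 1 ZH11 array or either OE-24 array.

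The gene mfs1 had an interaction of 0.76 ± 0.13 (adjusted p = 0.0249), DJB6 one of 0.66 ± 0.12 (adjusted p = 0.03) and the beta-glucosidase BGLU27 one of 0.64 ± 0.12 (adjusted p = 0.0311). All 3 fell in both genotypes. They were lost in 6, 7 and 5 of the 8 fits without 1 array, at adjusted p of 0.0581 to 0.154, 0.0546 to 0.174 and 0.105 to 0.172, each without any 1 ZH11 array or OE cold replicate 1, with mfs1 lost also without OE normal replicate 1, and DJB6 without either OE-29 array. LOC4347179 read 935 and 869 in ZH11 normal, 46.6 and 66.9 in ZH11 cold, 572 and 679 in OE normal and 143 and 135 in OE cold, an interaction of 1.62 ± 0.19 (adjusted p = 0.00443). LOC4343986 read 1166 and 1101 in ZH11 normal, 66.1 and 100 in ZH11 cold, 1277 and 1020.2 in OE normal and 262 and 225 in OE cold, an interaction of 1.39 ± 0.23 (adjusted p = 0.0189, and 0.0501 to 0.0782 without either ZH11 normal array, ZH11 cold replicate 1, OE normal replicate 2 or OE cold replicate 1). In both genes the OE cold pair was above the ZH11 cold pair without overlap.

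Over all probe sets, and not only the called ones, strong falls were slightly weaker in OE. Among the 499 probe sets whose mean cold change over both genotypes was at or under -2, the median interaction was 0.22, with 0.19 for OE-24 and 0.20 for OE-29 against the ZH11 mean. Between -2 and -1 it was 0.15 over 2922 probe sets. The 725 probe sets above 2 had a median of 0.01, with OE-24 at 0.13 and OE-29 at -0.08, so the lines lay on opposite sides of ZH11 there. Between -1 and 1 the median was 0.00 over 28478 probe sets. Calls were 6.81% of the probe sets in the lowest range, 0.474% in the middle and 11.9% in the highest.

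Reversed responses mostly rested on a change in a single genotype. Of the 55 probe sets, 18 had both cold changes called, in opposite directions, against 31 of all 34313 (0.0903%). Opposite signs define the class, so a share above that of all probe sets was fixed by the sort. By the rule of 1 probe set per gene 6 of 15858 genes met this with the interaction called, and 15 (0.0946%) had opposite cold calls in all. LOC4325228 read 519 and 503 in ZH11 normal, 385 and 426 in ZH11 cold, 478 and 518 in OE normal and 1018 and 1063 in OE cold. It changed by -0.33 in ZH11 and in OE by 1.04, and both OE cold arrays stood above both ZH11 cold arrays (interaction 1.37 ± 0.12, adjusted p = 0.00114). LOC4331625 read 1057 and 998 in ZH11 normal, 744 and 796 in ZH11 cold, 1079.8 and 1286 in OE normal and 1765 and 1638 in OE cold, with changes of -0.41 and 0.52 (interaction 0.93 ± 0.13, adjusted p = 0.00945, or 0.0751 without ZH11 cold replicate 1). The OE cold pair was highest, the ZH11 cold pair lowest.

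LOC4328185 went the other way, with 180.2 and 159 in ZH11 normal, 296 and 299 in ZH11 cold, 195 and 191 in OE normal and 167 and 143 in OE cold. It rose by 0.76 in ZH11 and changed by -0.29 in OE (interaction -1.05 ± 0.15, adjusted p = 0.0116, and 0.0710 to 0.0836 without either ZH11 cold array). The other 3 genes had smaller changes, LOC4351587 at -0.46 and 0.27, LOC4341948 at 0.26 and -0.39, and LOC4347061 at 0.41 and -0.22. Each was lost in 5 to 7 of the 8 fits without 1 array, at adjusted p of 0.0638 to 0.214, 0.0773 to 0.192 and 0.0535 to 0.130, all of them without any 1 ZH11 array and without OE cold replicate 1.

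Among the other reversed genes, LOC9271754 read 169.9 and 156 in ZH11 normal, 132 and 171 in ZH11 cold, 159.5 and 202 in OE normal and 628 and 457 in OE cold. ZH11 did not change by the test and OE rose (interaction 1.60 ± 0.24, adjusted p = 0.0133, and 0.0610 to 0.0861 without replicate 1 of either ZH11 group). Its other probe set was also called, at 1.46 (adjusted p = 0.0210), but sorted as amplified, with changes of 0.02 in ZH11 and 1.49 in OE. LOC4345755 changed in ZH11 by -1.17, and its OE change of 0.22 did not pass (interaction 1.39 ± 0.19, adjusted p = 0.00891, and 0.0533 to 0.0579 without either ZH11 cold array). LOC4347766 read 58.2 and 71.5 in ZH11 normal, 65.8 and 85.9 in ZH11 cold, 71.5 and 65.3 in OE normal and 18.6 and 24.2 in OE cold (interaction -1.36 ± 0.20, adjusted p = 0.013, and 0.0604 to 0.0643 without ZH11 normal replicate 1 or ZH11 cold replicate 2). Only OE cold was low there.

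LOC4340325 stood apart, with 9.2 and 6.8 in ZH11 normal, 9 and 16.4 in ZH11 cold, 598 and 559 in OE normal and 208 and 212 in OE cold. OE was far above ZH11 at both times and fell with cold (interaction -1.64 ± 0.19, adjusted p = 0.00427). All 4 ZH11 signals lay below the filter of 17.65, which the probe set passed through its OE arrays. Its reversed class rests on a ZH11 change of 0.25 among these low signals, which did not pass its own test (adjusted p = 0.140), and the interaction was -2.02 with a pseudocount of 1 and -1.32 with 64. A second probe set of the gene, with a mean signal of 34.7, had cold changes of -1.08 in ZH11 and -0.86 in OE, and its interaction of 0.22 was not called (adjusted p = 0.481).

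Both overexpressing lines moved the same way against ZH11 in all 388 calls. Each line's cold change lay beyond the 4 differences that the ZH11 arrays allow, on the same side, for 388 of 388, against 37% of all probe sets, and the same arrays made the calls. OE-24 was farther from ZH11 than OE-29 in 219 of the 388. Among the 135 amplified rises it was farther in 104, and among the 72 damped rises in 16. Over all probe sets with a mean cold change of 1 to 2, the median against ZH11 was 0.04 for OE-24 and -0.13 for OE-29. Above 2 it was 0.13 and -0.08. OE-24 thus lay above OE-29 among cold-raised probe sets in general, and the split within the called rises was not tested. DREB1A changed by 4.18 in OE-24 and 3.64 in OE-29, against 1.03 to 1.40 for the ZH11 differences. JAZ9 changed by 6.17 in OE-24 and 5.51 in OE-29, against 3.59 to 4.03. For GER6 the lines gave 0.62 in OE-24 and 0.17 in OE-29, against 1.80 to 2.21. In each of these 3 genes OE-24 had the higher cold change.

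**Figure D4:**
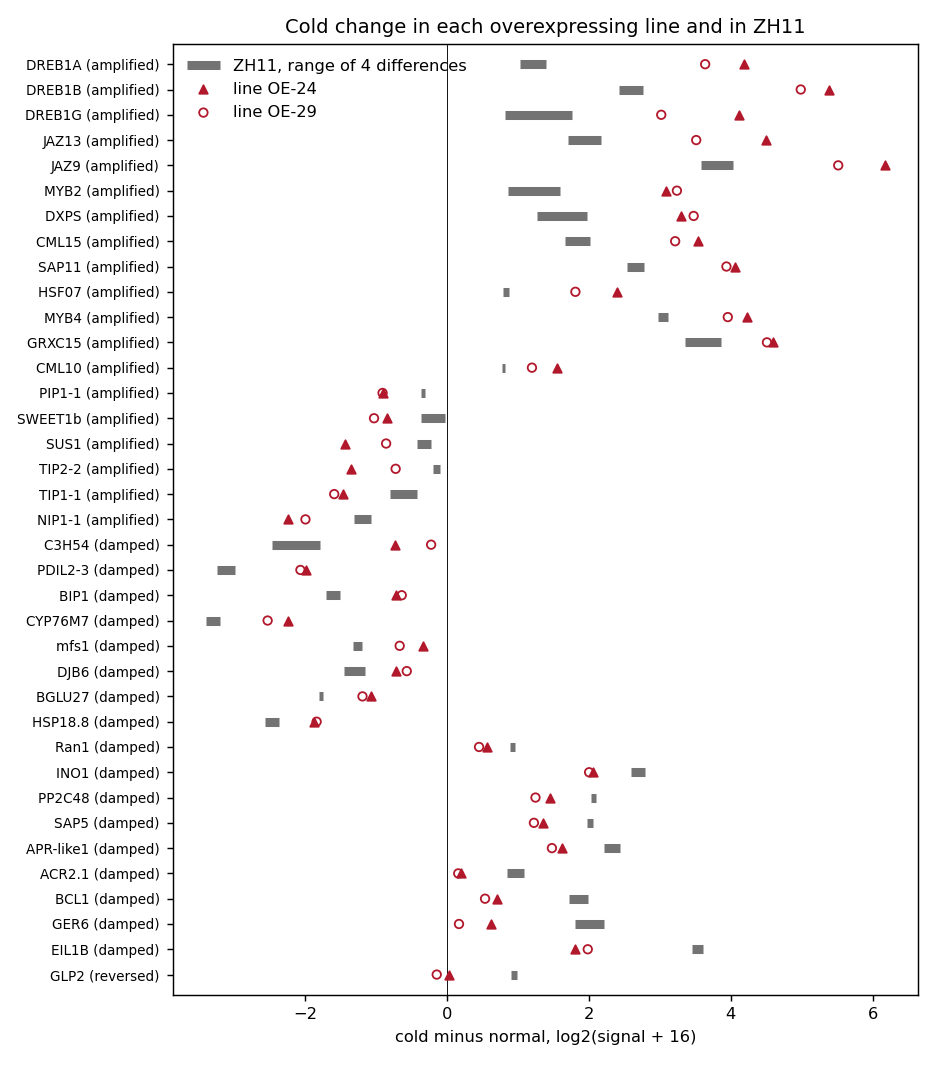
Cold minus normal in log2(signal + 16) (x axis) for each named gene, with its class in brackets (y axis). Red triangles are line OE-24, open red circles line OE-29, and grey bars span the 4 cold minus normal differences of the ZH11 arrays. In every gene shown both lines lie on the same side of the grey bar, and DREB1G has lines at 4.11 and 3.02.

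Of the 49 gene lists, chosen with earlier results of these data known, 31 had 0 calls by limma. They held 564 tested genes, of which 82 (14.5%) had an unadjusted p under 0.05, against 17.2% of all genes. The 17.2% includes the 242 called genes, which lists with 0 calls lack by their choice. Part of the gap was therefore fixed in advance. By list the share at an unadjusted p under 0.05 was above the 17.2% in 11 and not above it in 20, of which 7 had 0 such genes. The 11 were 3 of 4 genes of abscisic acid turnover and perception, 3 of 6 NAC factors, 3 of 6 WRKY factors, 3 of 7 clock genes, 5 of 12 photosystem genes, 4 of 17 reactive oxygen enzymes, 2 of 9 chlorophyll synthesis genes, 4 of 19 chitinases and defence genes, 5 of 24 Aux/IAA repressors, 2 of 10 LEA, dehydrin and cold-associated genes and 8 of 42 CIPK and CPK kinases. The 7 were 16 MAP kinases, 24 ribosomal proteins, 9 BURP and pectin genes, 7 metallothioneins, 5 other AP2/ERF factors, 4 chlorophyll breakdown genes and 2 class III peroxidases. Between them lay 1 of 27 cytokinin genes, 3 of 38 for cellulose and xylan, 1 of 11 for gibberellin, 1 of 10 SnRK2 kinases, 3 of 26 for lignin, 2 of 16 for jasmonate synthesis, 7 of 55 for the cell cycle, 3 of 22 for nitrogen and phosphate transport, 5 of 36 for metal transport, 5 of 35 homeodomain factors, 4 of 27 other auxin genes, 3 of 20 expansins and XTH and the 2 of 19 tissue markers given above. Several genes of these lists changed strongly with cold in both genotypes. NAC45 rose by 3.15 in ZH11 and 3.09 in OE, and the dehydrin gene LIP9 by 2.43 and 2.03. The light-harvesting gene LHCP changed by -3.67 and -3.72. ABA8OX1, which breaks down abscisic acid, had an interaction of 0.93 that did not pass (adjusted p = 0.0667), and the clock gene LHY one of -0.77 (adjusted p = 0.0589).

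**Figure D5:**
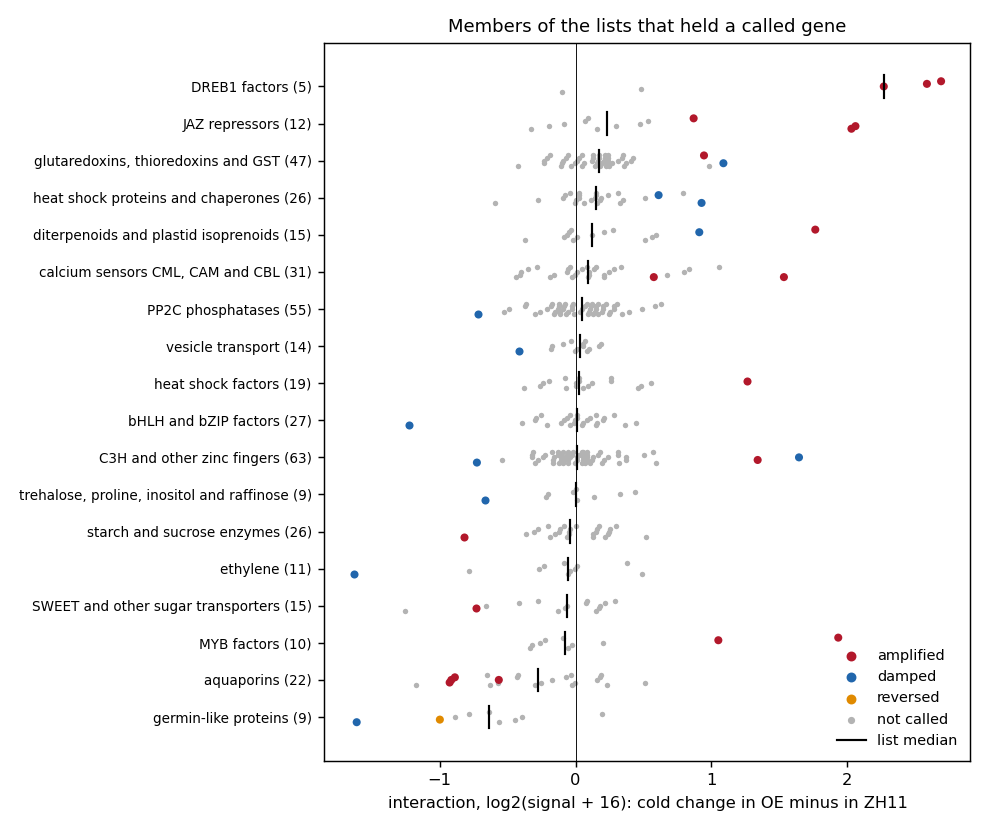
Interaction in log2(signal + 16) (x axis) of each tested gene in the 18 lists with a call (y axis, number of genes tested in brackets). Grey points are genes not called, coloured points called genes by class, and black bars list medians. DREB1 factors have the highest median, 2.27, and germin-like proteins the lowest, -0.64.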

How the data were processed

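Total RNA was hybridised to Affymetrix rice arrays as biotinylated cRNA, per the labels' protocols. The deposited values are linear intensity signals per probe set, and how the authors summarised and normalized them is not given in the sources used here. Values were taken to log2 after adding 16, without further scaling. Probe sets with a mean above the 40th percentile (signal 17.65) were tested. A model of 4 group means was fitted with limma 3.58.1 in R 4.3.3 by lmFit and a trended eBayes, leaving 4 residual degrees of freedom, with two-sided tests and Benjamini-Hochberg adjustment over the 34313 tested probe sets. The ± is the standard error of a log2 difference in limma. The p-values rest on 2 arrays a group.

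Of 57194 probe sets 22436 had 1 gene, 95 several and 34663 none in the platform annotation. Symbols were updated through the assembly ASM3414082v1. Of the called probe sets 279 had 1 gene, 1 several and 108 none. The members and the 49 lists were chosen with earlier results of these data known. Genes in the text are the largest interactions of each class and direction among named genes above the median signal, the 2 largest per list and direction, the 2 largest per class and direction among locus numbers, and those with opposite cold calls.

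The labels tie same-numbered OE arrays to a line, and ZH11 numbers pair nothing. The differences between replicates before and after cold correlated at 0.128 in OE and -0.02 in ZH11. Pseudocount, scaling, filter, trend, blocks and each left-out array were varied. The procedure was tested on simulated data. Promoter motifs were not analysed here.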

Additional observations from a re-analysis of the deposited data

Results flagged for a closer look

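The cold changes of the genotypes differed by the test of the interaction for 388 probe sets. In 6 genes both cold changes were called in opposite directions as well as the interaction. It was 1.37 for LOC4325228, 0.93 for LOC4331625 and 0.74 for LOC4351587, which fell in ZH11 and rose in OE. It was -1.05 for LOC4328185, -0.65 for LOC4341948 and -0.63 for LOC4347061, which rose in ZH11 and fell in OE. LOC4341948 and LOC4347061 had OE above ZH11 before cold, by 0.47 and 0.70, and after cold the genotypes differed by -0.18 and 0.07, which did not pass. Only LOC4325228 among the 6 was called in every fit that left out 1 array.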

How the results depend on the processing

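With 2 arrays a group, the number of calls changed with the array that was left out. Leaving out each array in turn gave 71 to 477 calls in all, 50 to 313 above 0 and 21 to 202 below 0, with 42 to 216 amplified, 21 to 190 damped and 8 to 78 reversed. The lowest total came without ZH11 cold replicate 1 (71), then without ZH11 cold replicate 2 (117), ZH11 normal replicate 1 (119) and ZH11 normal replicate 2 (213). For OE the total was 243 or 324 without the cold array of OE-24 or OE-29, and 408 or 477 without their normal arrays. In these fits the lone array of a group is assumed to vary like the other groups, and fewer residual degrees of freedom remain. Why calls were lost or gained was not tested. Called in all 8 were 66 probe sets (41 amplified, 19 damped and 6 reversed), 37 of them amplified rises. No called probe set changed the sign of its interaction in any fit that tested it. The calls were chosen on these same arrays for interactions large against their error, so a change of sign was unlikely from the start. Across the leave-one-out fits the median interaction was 0.185 to 0.241 at a mean cold change at or under -2, 0.0999 to 0.179 from -2 to -1, -0.0112 to 0.0210 from -1 to 1, -0.0946 to 0.0223 from 1 to 2, and -0.0221 to 0.0886 above 2.

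Without a trend in eBayes there were 91 calls below 0 and 104 damped, and with the replicate block within OE 214 and 249, 387 of the 388 calls being shared. The replicate block within OE gave 544 calls in all, and that over all arrays 314. Counting 1 call per gene gave 242, with 163 above and 79 below 0. Requiring both cold changes to be called left 18 reversed. Quantile normalization gave 221 above and 168 below 0, and median centring 208 and 191. At a mean cold change at or under -2 the median interaction was 0.223 with a pseudocount of 1, 0.210 with 64, 0.208 after quantile normalization and 0.205 after median centring. Between -1 and 1 it was -0.0383 after median centring and 0.0343 with a filter at the 60th percentile. The cause of these shifts was not tested.

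Of the 55 genes chosen for the text, 17 were called in all 8 leave-one-out fits and 36 in all 10 other alternatives. BCL1 and LOC4347314 were not tested with the filter at the 60th percentile and were called in the other 9. SUS1 was lost in 7 of the 10 other alternatives. The fit without a trend also lost TIP2-2, SWEET1b, PIP1-1, mfs1, DJB6, CML10, HSP18.8 and Ran1, and the block over all arrays SWEET1b, SAP5, BGLU27, CML10, Ran1, LOC4351587 and LOC4341948. A pseudocount of 1 lost JAZ9 and GRXC15, one of 64 C3H54, quantile normalization DJB6 and Ran1, median centring DJB6 and TIP2-2, no filter CML10, and the robust fit DREB1G. The replicate block within OE lost none of the 55.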

Other observations

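Of the 388 called probe sets, 108 had no gene in the platform annotation and are not described by name. The lists of LEA and clock genes, ribosomal proteins and photosystem genes had median cold changes in ZH11 and OE, in that order, of 0.18 and 0.08, -1.02 and -1.08, -0.23 and -0.17, and -0.84 and -0.68. Of 20 expansin and XTH genes, which act on cell walls, 16 had an interaction below 0, with a median of -0.13, with 0 called by limma and 3 at an unadjusted p under 0.05. Of 17 ascorbate peroxidase and other genes of reactive oxygen enzymes, 14 had an interaction above 0, with a median of 0.14, 0 called by limma and 4 at an unadjusted p under 0.05. Over all genes the median was 0.05, and these counts of signs were not tested.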
